A study of Homo sapiens with 12 samples.

Results

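Death and TNF-family receptor genes were followed in arrays labelled as knockdown of the kinase MARK2 and their vector controls in 3 human lung cancer cell lines. The 10 genes were taken by name: the ligand TNFSF10, the receptors TNFRSF10A, TNFRSF10B, FAS, TNFRSF1A and TNFRSF21, the decoy receptors TNFRSF10C, TNFRSF10D and TNFRSF11B, and the inhibitor CFLAR. On the Affymetrix arrays used they are read by 31 probe sets that carry 1 gene symbol, of 44988 such probe sets in all; 2 more probe sets of TNFRSF10C carry a second symbol and were left out. All 10 genes had a tested probe set, and 30 of the 31 probe sets passed the filter for dim signal.

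Each line, H1993, H1693 and H1650, received lentiviral short hairpin RNA aimed at MARK2 (KD) or the empty pLKO vector (PLKO CONTROL). Every one of the 6 groups holds 2 arrays, described as biological replicates, so 12 arrays carry the whole comparison. The lines were chosen by the submitters because they overexpress MARK2, and the hairpins and the time after transduction are not stated in the labels.

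TNFSF10 encodes TRAIL, a trimeric ligand that binds the death receptors TNFRSF10A (DR4) and TNFRSF10B (DR5). A bound death receptor recruits the adaptor FADD and pro-caspase-8 through its cytoplasmic death domain, and CFLAR (c-FLIP) competes for the same platform. The decoys bind TRAIL without passing on a complete death signal: TNFRSF10C is anchored by lipid, TNFRSF10D has a truncated death domain, and TNFRSF11B (osteoprotegerin) is secreted and also binds RANKL. FAS is the receptor of FAS ligand, TNFRSF1A is the main TNF receptor and signals to NF-kB as well as to death, and TNFRSF21 (DR6) is a death-domain receptor with roles in neurons and lymphocytes.

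Promoter sequence is shown for TNFSF10 and FAS, a ligand and a receptor gene whose differences between KD and PLKO CONTROL arrays varied between the lines. Both are the 250 bases before an annotated RefSeq start, printed 5′ to 3′ on the gene's strand in build GRCh38.p14. The TNFSF10 stretch is chr3:172523431-172523680 on the minus strand. The FAS stretch is chr10:88990548-88990797 on the plus strand, the most upstream of 3 FAS starts in the table. Capitals mark the motifs found.
TNFSF10: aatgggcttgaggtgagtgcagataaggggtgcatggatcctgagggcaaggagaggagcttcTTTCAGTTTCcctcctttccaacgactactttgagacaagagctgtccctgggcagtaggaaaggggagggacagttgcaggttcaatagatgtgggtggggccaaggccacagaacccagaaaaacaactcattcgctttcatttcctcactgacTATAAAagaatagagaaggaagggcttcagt
FAS: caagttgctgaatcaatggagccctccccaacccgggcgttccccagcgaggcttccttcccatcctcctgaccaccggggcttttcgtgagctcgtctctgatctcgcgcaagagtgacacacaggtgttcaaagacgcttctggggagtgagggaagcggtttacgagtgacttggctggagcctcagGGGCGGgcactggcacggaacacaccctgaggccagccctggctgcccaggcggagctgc
The motifs searched on both strands were the core of the interferon-stimulated response element (GAAA, 2 bases of any kind, GAAA), the GAS element (TTCNNNGAA), the TATA box (TATAAA) and the GC box (GGGCGG), none of which overlapped another here. TNFSF10 held the interferon core from 187 to 178 bases before the start, on the opposite strand, and a TATA box from 31 to 26 bases before it. Among 35116 promoter windows of this length, 3.02% held the interferon core, 10.7% the TATA box, 6.57% the GAS element and 42.6% the GC box. The printed FAS stretch held only a GC box, 60 to 55 bases before the start. None of the windows searched for TNFRSF1A, TNFRSF21, FAS or CFLAR held the interferon core. For TNFRSF10A, TNFRSF10B, TNFRSF10C, TNFRSF10D and TNFRSF11B no window was available, so these genes were not searched. A match describes these letters and is not a measured binding site.

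MARK2, the targeted gene, had a log2 signal of 6.76 and 6.77 in H1993 KD arrays, against 9.17 and 9.06 in H1993 PLKO CONTROL arrays (change -2.35, limma adjusted p = 7.58e-06). In H1693 it had 6.62 and 6.57 in KD arrays, against 7.76 and 7.97 in PLKO CONTROL arrays (change -1.27, adjusted p = 0.000304). In H1650 it had 5.92 and 5.37 in KD arrays and 6.07 and 5.80 in PLKO CONTROL arrays, and the groups overlapped (change -0.29, adjusted p = 0.16), and its other probe set was at 0.03 (adjusted p = 0.916). A fall was therefore measured in H1993 and H1693 only, and KD in H1650 names the label of those arrays, not a measured knockdown. On the H1650 arrays the other MARK2 probe set lay between 4.38 and 4.62, under a log2 signal of 5, where a fall could not be seen. The brightest had a control mean of 5.94 in H1650, near that level, and its change had a 95% interval of -0.65 to 0.07. A small fall in H1650 is therefore not excluded. The 3' minus 5' signal of the GAPDH control probe sets, a measure of RNA integrity, was 6.87 and 6.77 (log2) on the H1650 KD arrays, against 2.28 and 3.07 on the H1650 PLKO CONTROL arrays. On the other 8 arrays it lay between -0.12 and 0.02, so H1650 stands apart from the other lines. All 7 epithelial markers reached a log2 signal of 5 on every array, with 3 higher and 0 lower in KD arrays of H1993, 2 and 1 in H1693, and 1 and 4 in H1650. Among the 4 was the keratin KRT8, with a change of -4.47 and other probe sets from -3.28 to 0.42. Markers of blood, endothelium, fibroblasts and muscle (10 tested) had 1 higher and 0 lower in H1993, 2 and 0 in H1693, and 0 and 1 in H1650. At an unadjusted p of 0.05 these 0 counts were 0 as well, except for 1 higher other-cell marker in H1650. Of all genes tested, 17.6% were higher and 13.3% lower in H1993, 15.9% and 14.8% in H1693, and 35.5% and 16.2% in H1650. Over 12 such markers the summed log2 signal ranged from 76.7 to 77.5 in KD and from 74.5 to 75.4 in PLKO CONTROL arrays of H1993. The ranges were 82.2 to 82.6 in KD and 80.8 to 81.7 in PLKO CONTROL arrays of H1693, and 83.3 to 83.3 in KD and 81.5 to 82.0 in PLKO CONTROL arrays of H1650. From 9 to 10 of the 12 reached 5 in each group, and PTPRC, the pan-leukocyte marker, or DCN was lowest, with means from 3.56 to 4.21. The brightest in H1993 was CD14, with means of 8.72 in KD and 8.21 in PLKO CONTROL arrays. In the other lines it was COL3A1, with 11.04 and 10.42 in H1693 and 10.93 and 10.41 in H1650. Those higher in KD arrays were COL1A1 in H1993 (change 0.59) and COL1A1 and COL3A1 in H1693 (0.67 and 0.62). The 1 lower in H1650 was CD14 (change -0.55). The part of RNA integrity or of other cell types in the results below was not tested.

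Across the family, 6 of the 10 genes passed a limma adjusted p of 0.05 in H1993 KD arrays, 4 higher and 2 lower, by the brightest probe set of each gene. In H1693 3 passed, 2 higher and 1 lower, and in H1650 8 passed, 5 higher and 3 lower. Among all 16205 genes tested, 30.9% passed in H1993, 30.7% in H1693 and 51.7% in H1650, so the family's H1693 count lies at about that share. The change differed between lines for 8 of the 10 genes by the F test, where 52.3% of all genes did; TNFRSF11B is among the 8 and lies under the filter in 2 of the lines. The median change of the 10 genes was 0.08, -0.03 and 0.31 (log2) in H1993, H1693 and H1650, beside 0.02, -0.02 and 0.15 over all genes. TNFRSF10D passed as lower in all 3 lines. TNFRSF10B passed as higher on its brightest probe set, but in H1993 its other probe sets were below 0. The H1993 count depended on single arrays: it was 3 without PLKO CONTROL replicate 2 or KD replicate 1 of that line. It was 4 without the other H1993 arrays or without either control array of H1693. As bulk RNA was measured, fewer cells expressing a gene and less RNA per cell cannot be told apart.

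**Figure D1:**
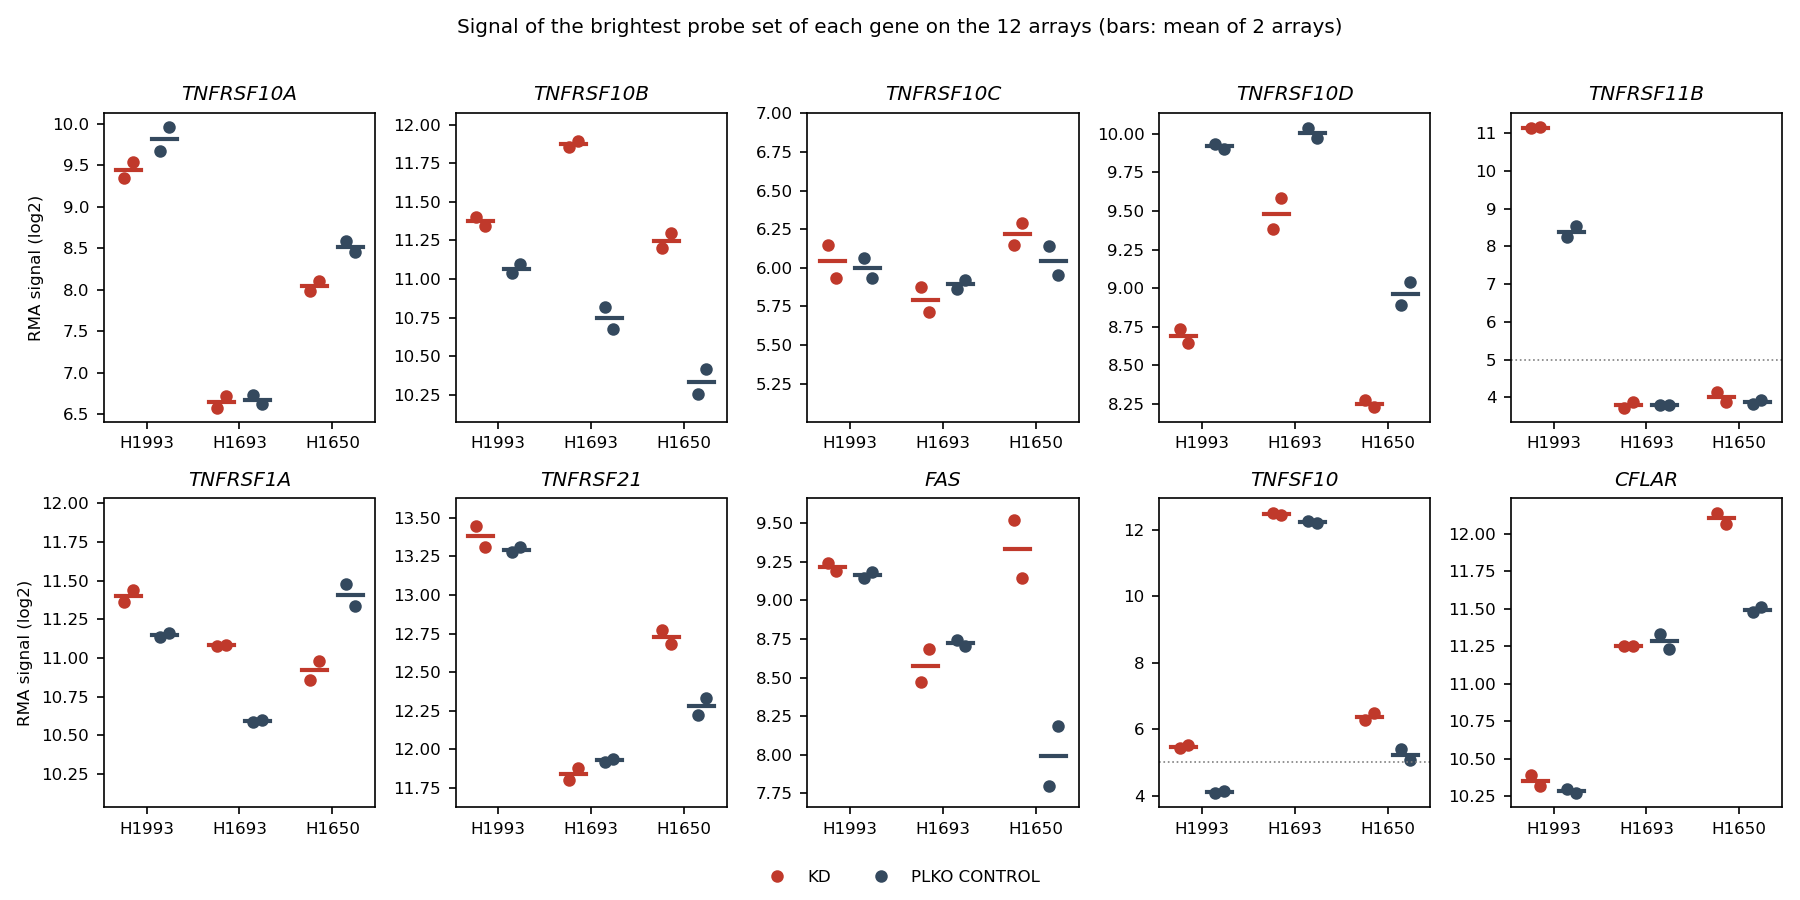
RMA signal (log2, vertical axis, scaled per gene) of the brightest probe set of each of the 10 genes on every array, with KD (red) left of PLKO CONTROL (dark blue) in each line and bars at the mean of 2 arrays; the dotted line, where in range, is a log2 signal of 5. TNFRSF10D lies lower in KD arrays of all 3 lines, TNFRSF11B stands out in H1993 and TNFSF10 in H1693.

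TRAIL itself was expressed strongly in 1 line and was higher in the KD arrays of the other two. In H1993, where the gene was near the bottom of the scale, the brightest TNFSF10 probe set had a log2 signal of 5.42 and 5.51 in KD arrays, against 4.07 and 4.14 in PLKO CONTROL arrays. That is a change of 1.36 (SE 0.11, adjusted p = 2.37e-05). In H1650 it had 6.26 and 6.48 in KD arrays, against 5.39 and 5.07 in PLKO CONTROL arrays, a change of 1.14 (SE 0.11, adjusted p = 1.8e-05). The KD arrays lay above both control arrays in each of these lines, yet every signal stayed far under that of H1693.

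In H1693 TNFSF10 had a signal of 12.53 and 12.46 in KD arrays, against 12.27 and 12.20 in PLKO CONTROL arrays. The groups did not overlap, but the change of 0.26 (SE 0.11, 95% interval 0.01 to 0.51) did not pass (adjusted p = 0.122). It passed in the fit without the H1650 arrays (adjusted p = 0.0261) and over its alternatives that adjusted p ran from 0.00831 to 0.364. On the brightest probe set the change in H1993 exceeded that in H1693 by 1.10 (adjusted p = 0.00152). There the change in H1693 was below that in H1650 by 0.88 (difference -0.88, adjusted p = 0.00146). Its H1993 control signals lay under a log2 of 5, so the difference of 1.10 is not exact. The second probe set of TNFSF10 was higher in all 3 lines by 0.50, 0.39 and 0.33 in H1993, H1693 and H1650, each past the threshold, with no difference between lines that passed (F test, adjusted p = 0.619). The remaining one changed by 0.83, 0.30 and 1.42 in that order, and passed in H1993 and H1650. Its difference for H1993 minus H1693 did not pass (0.53, adjusted p = 0.204), while that for H1693 minus H1650 did (-1.12, adjusted p = 0.00594). In H1993 and H1650 several of its signals lay under a log2 of 5, and the size of the change depends on the probe set.

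Of the 2 TRAIL death receptors, TNFRSF10B rose and TNFRSF10A fell in H1650. TNFRSF10B had a log2 signal of 11.86 and 11.90 in H1693 KD arrays, against 10.82 and 10.68 in PLKO CONTROL arrays. It rose by 1.13 there (SE 0.09, adjusted p = 1.76e-05), a signal 2.18-fold higher. In H1650 it had 11.20 and 11.30 in KD arrays, against 10.25 and 10.42 in PLKO CONTROL arrays, a rise of 0.91 (SE 0.09, adjusted p = 1.22e-05). KD arrays lay above control arrays by several times the gap between replicates in both lines.

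In H1993 the same probe set had 11.40 and 11.34 in KD arrays, against 11.04 and 11.10 in PLKO CONTROL arrays, a rise of 0.31 (SE 0.09, adjusted p = 0.023). That call was lost on leaving out any 1 of the 4 H1993 arrays, with changes of 0.28 to 0.34 and adjusted p up to 0.117. The other probe sets of TNFRSF10B in H1993 were at -0.05 and -0.23 and did not pass, so DR5 has no settled direction in that line. In H1693 they rose by 0.59 and 0.85, both past the threshold, and in H1650 they were at 0.15 (not passed, adjusted p = 0.409) and 0.81 (passed). The change in H1993 was smaller than in H1693 by 0.82 (difference -0.82, adjusted p = 0.00171) and smaller than in H1650 by 0.61 (difference -0.61, adjusted p = 0.00273). Between H1693 and H1650 the difference was 0.21, with a 95% interval of -0.06 to 0.48 (adjusted p = 0.187).

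TNFRSF10A, read by 1 probe set, was lower in 2 lines. In H1650 its log2 signal was 7.98 and 8.10 in KD arrays, against 8.59 and 8.45 in PLKO CONTROL arrays, a fall of 0.48 (difference -0.48, SE 0.12, adjusted p = 0.00622). In H1993 it was 9.35 and 9.54 in KD arrays, against 9.67 and 9.96 in PLKO CONTROL arrays, a change of -0.37 (SE 0.12, adjusted p = 0.0359). The groups did not overlap in either line, although the H1993 call was lost without KD replicate 1 or PLKO CONTROL replicate 2 of that line (changes of -0.28 and -0.23). It was also lost without either H1693 control array, and in the fit of the H1993 arrays alone (adjusted p = 0.0849). In H1693, where DR4 signal was lowest, it was 6.57 and 6.71 in KD arrays and 6.73 and 6.62 in PLKO CONTROL arrays, and the groups overlapped (change -0.03, adjusted p = 0.882). The F test over the 3 lines did not pass (adjusted p = 0.091). The difference between the H1693 and H1650 changes lay at the threshold: it was 0.44 (adjusted p = 0.0509), and over the alternatives its adjusted p ran from 0.0104 to 0.155.

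FAS was higher in the KD arrays of H1650 alone among the lines tested. Its brightest probe set had a log2 signal of 9.52 and 9.14 in H1650 KD arrays, against 7.80 and 8.19 in PLKO CONTROL arrays, a rise of 1.34 (SE 0.15, adjusted p = 3.48e-05). The other probe set rose by 1.54 there (adjusted p = 2.85e-07), with 8.94 and 9.10 in KD arrays, against 7.47 and 7.49 in PLKO CONTROL arrays. Both probe sets kept KD clear of control, on the arrays where the GAPDH 3' minus 5' signal also differed most. In H1993 the brightest probe set was at 9.24 and 9.19 in KD arrays and 9.14 and 9.18 in PLKO CONTROL arrays (change 0.05, adjusted p = 0.837). In H1693 it was at 8.47 and 8.68 in KD arrays and 8.74 and 8.70 in PLKO CONTROL arrays (change -0.15, adjusted p = 0.522), while the other probe set fell by 0.28 (adjusted p = 0.0329). The H1650 change exceeded those of H1993 and H1693: the differences, H1993 or H1693 minus H1650, were -1.29 and -1.49 (adjusted p = 0.000757 and 0.000283).

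The TNF receptor TNFRSF1A moved one way in H1693 and the other way in H1650. In H1693 its brightest probe set had a log2 signal of 11.08 and 11.08 in KD arrays, against 10.58 and 10.60 in PLKO CONTROL arrays, a rise of 0.49 (SE 0.08, adjusted p = 0.00131). In H1650 it had 10.86 and 10.98 in KD arrays, against 11.48 and 11.34 in PLKO CONTROL arrays, a change of -0.49 (SE 0.08, adjusted p = 0.000512). In H1993 it had 11.36 and 11.44 in KD arrays, against 11.14 and 11.16 in PLKO CONTROL arrays, a change of 0.25 (adjusted p = 0.0396). The H1993 call was lost without any 1 of its own 4 arrays or of the 4 H1693 arrays. It was also lost with the replicate number as a block (adjusted p = 0.0983) and in the fit of the H1993 arrays alone (adjusted p = 0.0703).

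The next 2 probe sets of TNFRSF1A by brightness gave rises of 0.58 and 0.68 in H1693 and falls in H1650, with changes of -0.94 and -1.02 there, all past the threshold. In H1993 they were at 0.23 each and did not pass (adjusted p = 0.0696 and 0.0844). The dimmest did not pass in any line, with changes of -0.24, 0.01 and -0.11 in H1993, H1693 and H1650. The difference between the H1693 and H1650 changes was 0.98 (adjusted p = 8.33e-05) on the brightest probe set.

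TNFRSF21 gave no change past the threshold in H1993 or H1693, on any of 3 probe sets. The brightest had 13.45 and 13.31 in KD and 13.28 and 13.31 in PLKO CONTROL arrays of H1993 (change 0.09), and 11.80 and 11.88 in KD and 11.92 and 11.94 in PLKO CONTROL arrays of H1693 (change -0.09). In H1650 the brightest had a log2 signal of 12.77 and 12.68 in KD arrays, against 12.22 and 12.33 in PLKO CONTROL arrays, a rise of 0.45 (SE 0.08, adjusted p = 0.000958). The dimmest probe set had 7.22 and 7.60 in KD arrays, against 9.82 and 9.66 in PLKO CONTROL arrays, a fall with a change of -2.33 (SE 0.12, adjusted p = 1.53e-07). The second rose by 0.33 (adjusted p = 0.0344). Probe sets of the same gene thus went opposite ways within H1650, and the mean of the 3 was -0.52. Direction for DR6 in that line therefore depends on the probe set, beside the 3' minus 5' difference given above.

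**Figure D2:**
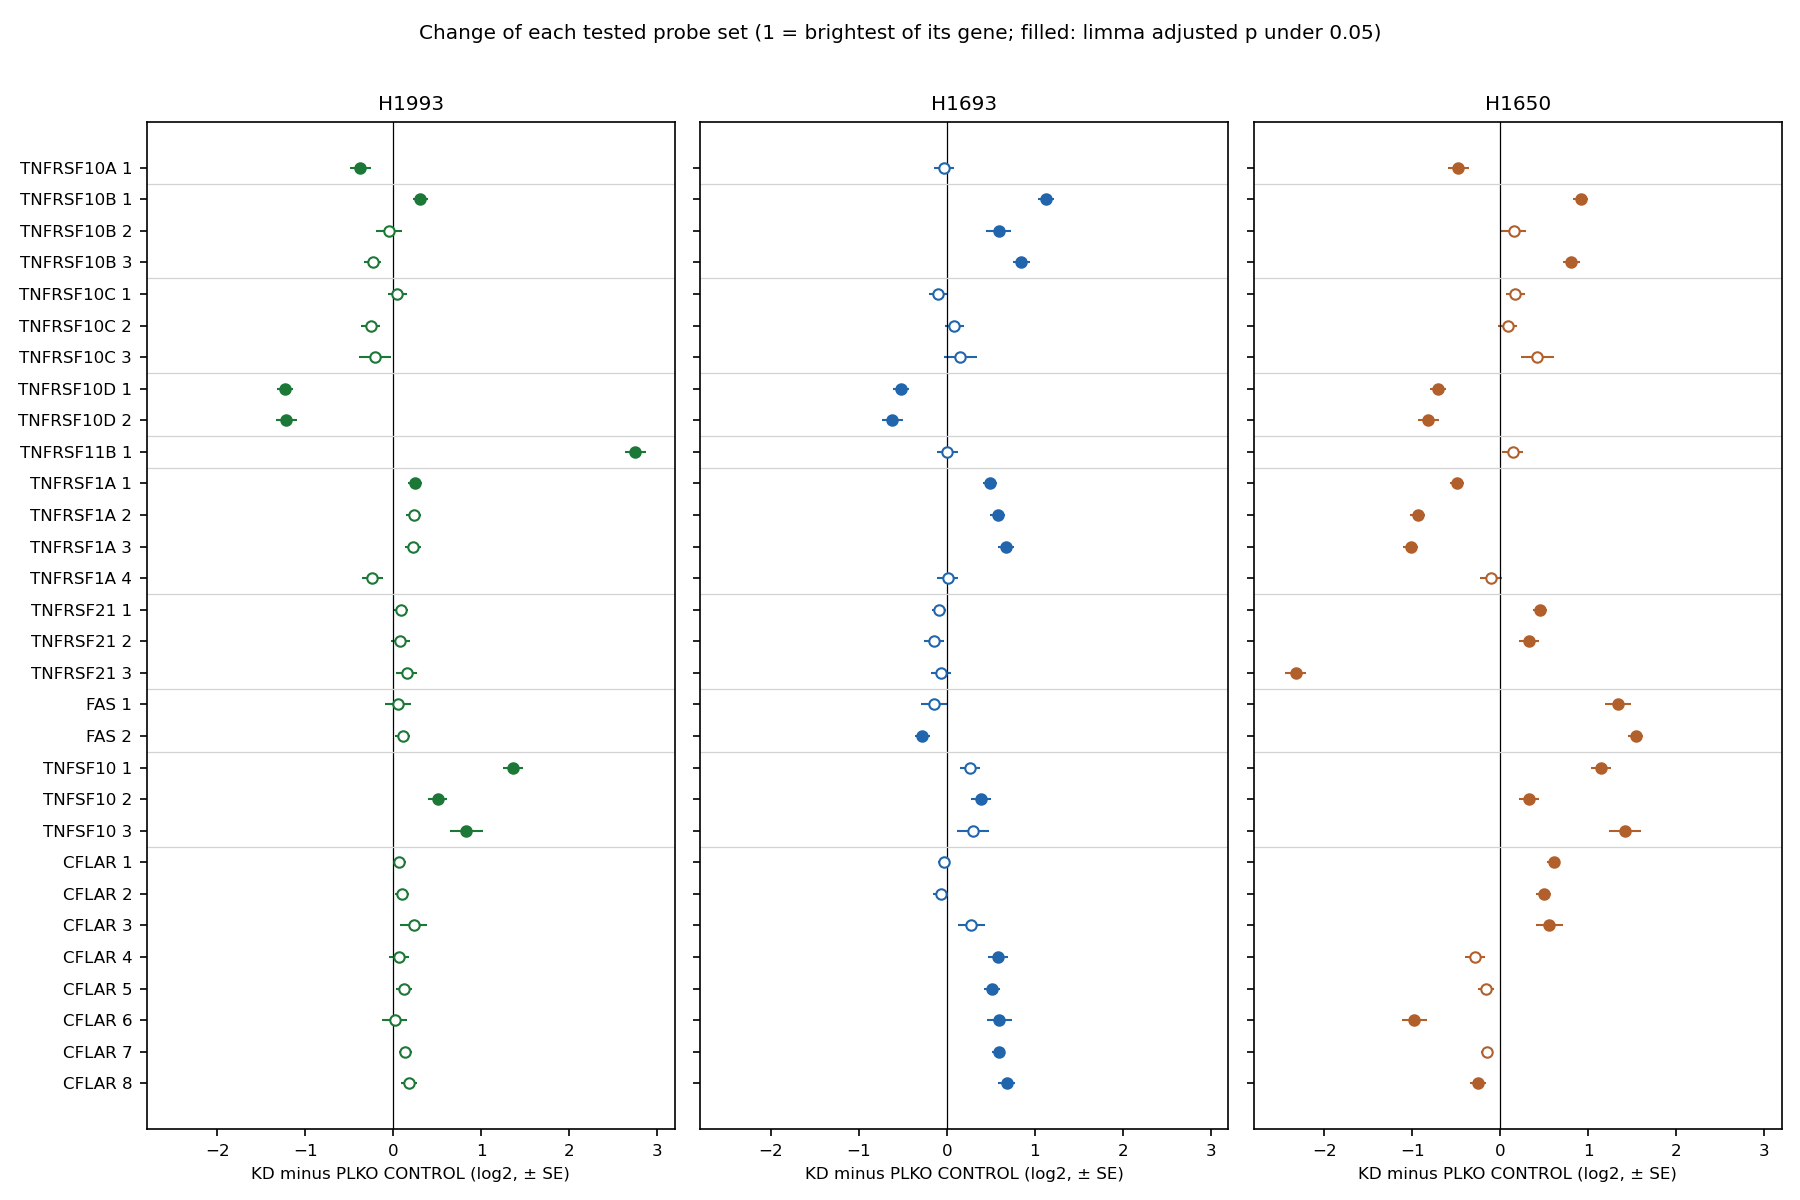
Change in log2 signal (KD minus PLKO CONTROL, ± SE, n = 2 arrays a group) of each of the 30 tested probe sets, a panel per line; probe sets of a gene are numbered from the brightest, and filled points passed a limma adjusted p of 0.05. Both TNFRSF10D probe sets lie below 0 in every panel, and in H1650 the TNFRSF21 probe sets run from -2.33 to 0.45 and those of CFLAR from -0.98 to 0.61.

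Among the decoys, TNFRSF10D fell in every line and on both of its probe sets. In H1993 the brightest had a log2 signal of 8.74 and 8.65 in KD arrays, against 9.94 and 9.90 in PLKO CONTROL arrays, a fall with a change of -1.23 (SE 0.09, adjusted p = 1.11e-05). In H1693 it had 9.38 and 9.58 in KD arrays, against 10.04 and 9.97 in PLKO CONTROL arrays, a change of -0.52 (SE 0.09, adjusted p = 0.00177). In H1650 it had 8.28 and 8.23 in KD arrays, against 8.89 and 9.04 in PLKO CONTROL arrays, a change of -0.71 (SE 0.09, adjusted p = 9.32e-05). No KD array reached a control array of its line.

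The dimmer TNFRSF10D probe set changed by -1.22, -0.62 and -0.82 in H1993, H1693 and H1650, each past the threshold and close to the brighter one. These calls were kept on leaving out any 1 of the 12 arrays, for the brightest probe set. On the brightest probe set the fall was larger in H1993 than in H1693 by 0.71 (difference -0.71, adjusted p = 0.00459). It was larger there than in H1650 by 0.52 (difference -0.52, adjusted p = 0.00824). On the dimmer one these differences were -0.60 (adjusted p = 0.0366) and -0.40, and the second did not pass (adjusted p = 0.0835). The size of the fall in H1693 and H1650 differed by 0.19 on the brightest (95% interval -0.09 to 0.47, adjusted p = 0.259). Among all genes, 13.3%, 14.8% and 16.2% were lower past the threshold in H1993, H1693 and H1650.

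TNFRSF11B was measurable in H1993 and rose there more than any other of the 10 genes in any line. Its single probe set had a log2 signal of 11.12 and 11.16 in H1993 KD arrays, against 8.24 and 8.53 in PLKO CONTROL arrays, a rise of 2.75 (SE 0.12, adjusted p = 6.51e-07) or 6.72-fold. In H1693 it was at 3.72 and 3.89 in KD arrays and 3.81 and 3.79 in PLKO CONTROL arrays. In H1650 it was at 4.15 and 3.89 in KD arrays and 3.82 and 3.93 in PLKO CONTROL arrays. The probe set passed the filter through the H1993 arrays, and in the other lines it stayed under a log2 signal of 5, with changes of 0.01 and 0.14 (adjusted p = 0.976 and 0.344). A fall could not be seen at that level and no rise passed, so the sizes of the changes are not compared between lines for this gene.

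TNFRSF10C did not pass in any line on any of its 3 tested probe sets, with changes from -0.26 to 0.42. The brightest had log2 signals of 6.15 and 5.94 in H1993 KD arrays and 6.06 and 5.93 in PLKO CONTROL arrays, and the groups overlapped. Its signals ran from 5.71 to 6.29 over the 12 arrays, near the log2 signal of 5 used as the filter. The 95% interval of its change in H1993 was -0.19 to 0.28.

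CFLAR, the inhibitor at the receptor, gave 2 patterns over its probe sets. The brightest had a log2 signal of 12.14 and 12.06 in H1650 KD arrays, against 11.48 and 11.51 in PLKO CONTROL arrays, a rise of 0.61 (SE 0.07, adjusted p = 6.72e-05). It was at 10.39 and 10.32 in KD and 10.30 and 10.27 in PLKO CONTROL arrays of H1993 (change 0.07, adjusted p = 0.557). In H1693 it was at 11.25 and 11.25 in KD and 11.33 and 11.23 in PLKO CONTROL arrays (change -0.03, adjusted p = 0.806). By this probe set, c-FLIP was higher in the KD arrays of H1650 and overlapped its control in H1693.

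The dimmer probe sets said otherwise. In H1693 the 5 dimmest of the 8 tested rose by 0.51 to 0.68, each past the threshold, while the 3 brightest were at -0.03, -0.07 and 0.28 and did not pass. In H1650 the 3 brightest rose by 0.61, 0.49 and 0.56, while the 5 dimmest ran from -0.98 to -0.15, of which 2 passed as falls. An example is the probe set of rank 6, with 7.54 and 7.54 in H1693 KD arrays against 6.93 and 6.95 in PLKO CONTROL arrays, and 6.47 and 6.40 in H1650 KD arrays against 7.58 and 7.24 in PLKO CONTROL arrays. None of the 8 passed in H1993, where changes ran from 0.02 to 0.23. This grouping by brightness was seen in the values and has no test of its own. The transcripts that each probe set reads were not used here. A further probe set stayed under a log2 signal of 5 on all 12 arrays and was not tested.

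Over all 30 tested probe sets of the family, 6 were higher and 3 lower past the threshold in H1993, 12 higher and 3 lower in H1693, and 12 higher and 9 lower in H1650. Across the 38924 probe sets tested, 28.7%, 29.1% and 51.3% passed in those lines in either direction. The shares higher were 15%, 15.7% and 30%, and the shares lower 13.7%, 13.4% and 21.3%. Probe sets of a gene share its RNA, and 8 of the 30 belong to CFLAR.

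Control levels differed between the lines for most of the 10 genes, as they did for most of all genes tested. By the F test over the 3 PLKO CONTROL groups, 9 of 10 genes passed, where 75.8% of all genes did, and TNFRSF10C was the exception on its brightest probe set (adjusted p = 0.418), although its second passed, with H1693 lower than H1993 and H1650. Taken in pairs, 8 genes differed between H1993 and H1693, 9 between H1993 and H1650 and 8 between H1693 and H1650, beside 62.1%, 63% and 62% of all genes. The widest gap was that of TNFSF10, whose control mean was 4.10 in H1993, 12.23 in H1693 and 5.23 in H1650. The difference between H1993 and H1693 was -8.13 (SE 0.11) and between H1693 and H1650 7.00 (adjusted p = 6.63e-12 and 2.24e-11). H1993 lay below H1650 by 1.13 on this probe set (difference -1.13, adjusted p = 6.99e-06), while the others gave -0.21 (adjusted p = 0.12) and -0.66 (adjusted p = 0.00878). The H1993 signal lies under the log2 signal of 5 used as the filter and that of H1650 just above it, so the differences from H1993 are between measured signals and are no exact levels. TNFRSF11B reached that signal in H1993 alone of the 3 control groups, with a mean of 8.39 there, 3.80 in H1693 and 3.88 in H1650, and H1693 and H1650 did not differ past the threshold (difference -0.08, adjusted p = 0.6).

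The TRAIL receptors ranked differently over the lines. TNFRSF10A was highest in H1993 (mean 9.82), then H1650 (8.52), then H1693 (6.67), and each neighbouring step passed (adjusted p = 2.86e-06 and 2.1e-07). TNFRSF10B followed the order H1993 (11.07), H1693 (10.75), H1650 (10.33) on its brightest probe set, with steps of 0.32 and 0.42 (adjusted p = 0.00826 and 0.00156). The smaller of those steps was lost without PLKO CONTROL replicate 2 of either H1993 or H1693, at 0.29 and 0.25. The dimmest TNFRSF10B probe set placed H1693 below H1650 instead (difference -0.25, past the threshold). TNFRSF10D was lower in H1650 (8.96) than in H1993 (9.92) and H1693 (10.01), and these last 2 differed by -0.09 with a 95% interval of -0.29 to 0.11. H1693, the line with the highest TNFSF10 signal, thus had the lowest TNFRSF10A signal of the 3.

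The remaining receptors had their own orders. FAS was highest in H1993 (9.16), then H1693 (8.72), then H1650 (7.99), with differences of 0.44 and 0.73 (adjusted p = 0.024 and 0.00125). The first of these did not pass without any 1 of the 4 control arrays of the 2 lines. TNFRSF21 was higher in H1993 (13.29) than in H1650 (12.28) and H1693 (11.93), and the last 2 changed places on its dimmest probe set (H1693 minus H1650, 0.91). TNFRSF1A had 11.15, 10.59 and 11.41 in H1993, H1693 and H1650 on its brightest probe set, and the difference of -0.26 between H1993 and H1650 did not pass without PLKO CONTROL replicate 1 of either line. Its next 2 probe sets by brightness placed H1650 last instead, below H1993 by 3.00 and 3.02 and below H1693 by 2.20 and 2.16. H1650 control arrays also had a GAPDH 3' minus 5' difference, whose part in this was not tested. CFLAR was lowest in H1993 (10.29), against 11.28 in H1693 and 11.49 in H1650, on the brightest probe set. The H1693 and H1650 step of -0.21 did not pass without either H1650 control array or without PLKO CONTROL replicate 2 of H1693. On 5 dimmer probe sets H1993 was higher than H1693 by 0.43 to 0.64.

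**Figure D3:**
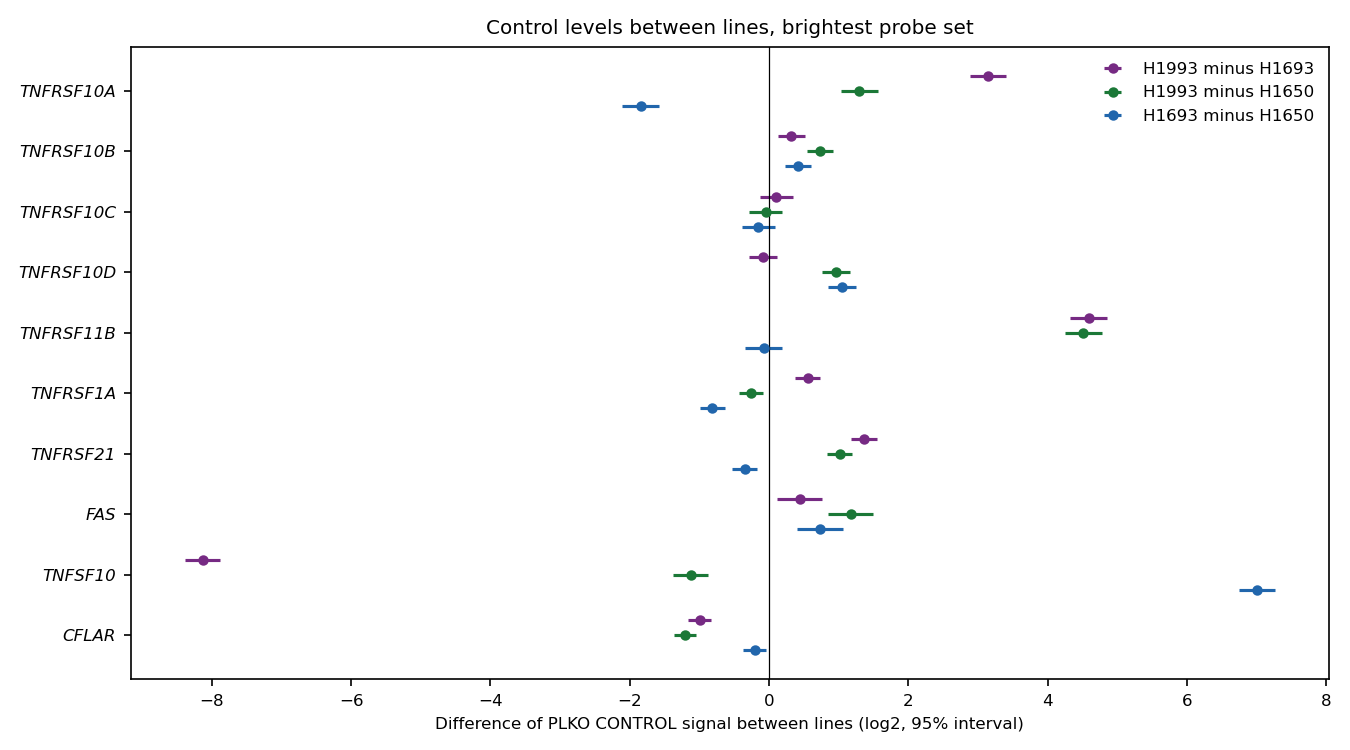
Differences in PLKO CONTROL signal between lines (log2, horizontal axis, with 95% intervals from the limma fit, n = 2 arrays a line) for the brightest probe set of each gene; points right of 0 are higher in the line named first. TNFSF10 spans from -8.13 to 7.00 and TNFRSF11B is 4.59 and 4.51 higher in H1993 than in H1693 and H1650, where the dimmer group (TNFSF10 in H1993, TNFRSF11B in H1693 and H1650) is under a log2 signal of 5 and the difference is no exact level; the TNFRSF10C intervals include 0.

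Beyond these 10 genes, adaptors, caspases and inhibitors of death signalling changed in both directions. Of 21 measured, 6 were higher and 2 lower in H1993, 4 higher and 4 lower in H1693, and 9 higher and 2 lower in H1650, with medians of 0.09, 0.02 and 0.11. All genes gave 17.6% higher and 13.3% lower in H1993, 15.9% and 14.8% in H1693, and 35.5% and 16.2% in H1650. CASP10, an initiator caspase, rose by 1.50 in H1993 (adjusted p = 1.13e-05), with other probe sets from 0.19 to 1.36. CASP8, the initiator recruited by FADD, rose by 1.05 in H1693 and fell in H1650, with a change of -0.84, and its other probe sets ran from 0.28 to 1.60 in H1693 and from -1.63 to 0.09 in H1650. BIRC5 (survivin) fell in H1993 and H1693, with changes of -0.70 and -0.69. MLKL, the effector of necroptosis, changed by -0.68 in H1693 and by 0.59 in H1650, both past the threshold.

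Genes between TNF receptors and NF-kB had more members higher than lower in each line, as had all genes by the shares just given. Of 28 measured, 12 were higher and 3 lower in H1993 (median 0.26), 7 higher and 2 lower in H1693 (median 0.16), and 14 higher and 6 lower in H1650 (median 0.27). All genes passed at 30.9%, 30.7% and 51.7% in those lines. In H1993 TRAF1, an NF-kB-induced adaptor, rose by 1.59, RELB by 1.01 and NFKB2 by 0.88, RELB and NFKB2 being subunits of the non-canonical pathway. In H1693 RBCK1, of the linear ubiquitin ligase complex, rose by 0.89, with other probe sets from -0.08 to 0.96. In H1650 TNFAIP3 (A20), which restrains NF-kB, rose by 1.96, and its binding partner TNIP1 fell, with a change of -1.87 and other probe sets from -2.25 to -0.14.

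Of 19 other TNF-family receptors measured, 5 were higher and 0 lower in H1993, 3 higher and 1 lower in H1693, and 1 higher and 1 lower in H1650, beside 30.9%, 30.7% and 51.7% of all genes in either direction. At an unadjusted limma p of 0.05, 8 were higher and 0 lower in H1993. TNFRSF19 and the death receptor TNFRSF25 rose by 1.49 and 1.27 in H1993, although the second probe set of TNFRSF25 was at 0.05. LTBR, the lymphotoxin beta receptor, rose by 0.55 in H1993 and 0.81 in H1693, and TNFRSF12A, the TWEAK receptor, by 0.51 and 0.67. TNFRSF12A fell in H1650, with a change of -1.11. TNFRSF9 rose by 1.48 in H1693, to a mean log2 signal of 6.93 in KD arrays, against 5.45 in PLKO CONTROL arrays.

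Of 11 other TNF-family ligands measured, 0 passed in H1993 in either direction, 3 were higher and 1 lower in H1693, and 4 higher and 1 lower in H1650. All genes passed at 30.9%, 30.7% and 51.7%, about the share of these ligands in H1693 and H1650. In H1650 CD70, the CD27 ligand, rose by 1.30 and TNFSF9 by 1.26, with a second TNFSF9 probe set at -0.06. TNFSF15 fell there, with a change of -1.25, and rose by 0.75 in H1693. TNF itself rose by 0.84 in H1650, with a mean log2 signal of 5.52 in KD arrays and 4.68 in PLKO CONTROL arrays, close to the filter. The count in H1993 from limma was also 0 at an unadjusted p of 0.05.

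Of 10 measured transcription factors known to act on death receptor or TRAIL genes, 2 were higher and 3 lower in H1993, 4 higher and 0 lower in H1693, and 2 higher and 4 lower in H1650. The shares over all genes were 17.6% higher and 13.3% lower, 15.9% and 14.8%, and 35.5% and 16.2% in the same lines, which stand also beside the shedding genes below. IRF9, a transcription factor of the interferon response, was higher in KD arrays of all 3 lines, with changes of 1.39, 0.39 and 0.50 in H1993, H1693 and H1650, although its other probe sets ran from -0.53 to 0.13 in H1650. DDIT3 (CHOP), a stress factor known to induce TNFRSF10B, rose by 0.84 in H1693 and fell in H1650, with a change of -1.01. IRF1 rose by 0.65 in H1993, and in H1650 its brightest probe set was at -0.78 and the others from -0.04 to 0.71. JUN changed by -0.86 in H1993 and 1.13 in H1693, both past the threshold. Of 8 genes of receptor shedding and trafficking, 3 were higher and 0 lower in H1993, 2 and 0 in H1693, and 3 and 1 in H1650. The counts of 0 lower were also 0 at an unadjusted limma p of 0.05 for both lists. ADAM17, the protease that sheds TNFRSF1A, rose by 0.56, 0.45 and 0.45 in H1993, H1693 and H1650, with other probe sets at -0.07 and -0.03 in H1650, and ADAM10 fell in H1650 (change -2.46, others from -0.81 to -0.56).

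**Figure D4:**
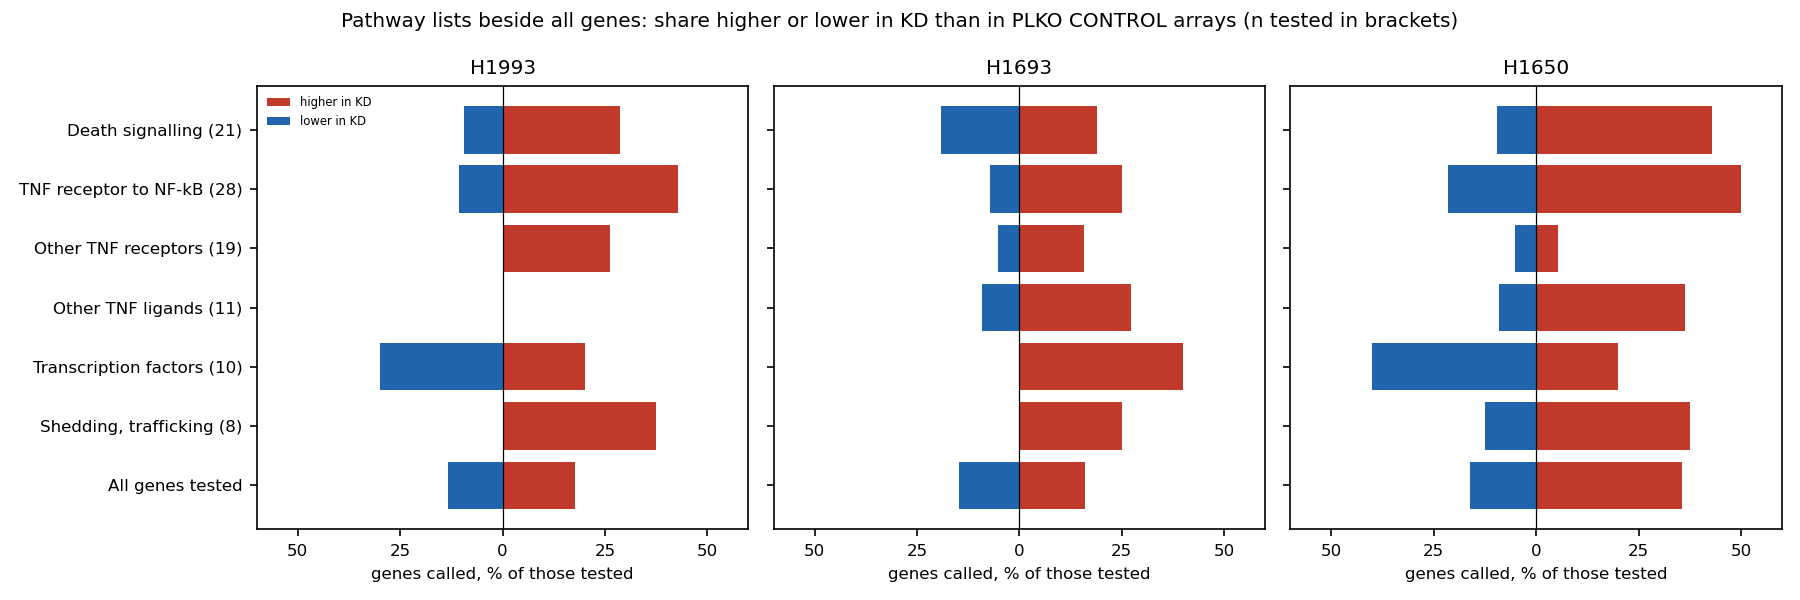
Share of measured genes (%, horizontal axis) that passed a limma adjusted p of 0.05 as higher (red, right) or lower (blue, left) in KD than in PLKO CONTROL arrays, for 6 pathway lists and, at the bottom, all 16205 genes tested, a panel per line. In H1993 12 of 28 TNF receptor to NF-kB genes are higher, beside 17.6% of all genes.

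The genes whose signals ran most like those of the family over the 12 arrays, once the mean of each line was subtracted, were found by Pearson correlation. The 12 arrays share 6 groups, so these values describe co-variation over the KD and PLKO CONTROL arrays of 3 lines and carry no p. SYTL5 and ALCAM ran most like TNFRSF10B (r = 0.996 and 0.994), and SRP72 and PSIP1 most like TNFRSF10D (r = 0.990 and 0.985). ARHGAP27 and TPPP ran most like TNFRSF11B (r = 0.994 and 0.991), with TPPP higher by 2.55 in H1993 KD arrays. SOS1 and AMPD2 were closest to TNFSF10 (r = 0.988 and 0.985) and ZFAND3 and PCSK1N to TNFRSF1A (r = 0.993 and 0.991). For FAS these were PRDX4 and ZNRF2, for CFLAR RRAGD and SPINK13, and for TNFRSF21 ZNF440 and METTL18, with r from 0.985 to 0.991. Each of these changed most in H1650, where the GAPDH 3' minus 5' signal also differed between KD and PLKO CONTROL arrays. RRAGD, for example, changed by 0.05, -0.09 and 1.15 in H1993, H1693 and H1650, and ZNRF2 by 0.08, -0.17 and 1.20. The part of RNA integrity in this was not tested. MOCS3 and LCAT ran most like TNFRSF10A (r = 0.977 and 0.955), and TSPOAP1 and ENTPD2 most like TNFRSF10C (r = 0.966 and 0.942).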

How the data were processed

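Total RNA of 12 samples was labelled with biotin and hybridised to 1 Affymetrix array each. The authors deposited 1 log2 signal for each probe set and array. The submitters' processing notes name RMA and Affymetrix Expression Console. RMA corrects background, sets the arrays to 1 distribution and summarises probes, so a shift shared by all genes would be removed. No version of either is stated there. Array medians ran from 7.13 to 7.32.

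From these values, probe sets with 1 platform gene symbol and a log2 signal of 5 or more on at least 2 arrays were kept (38924 probe sets, 16205 genes). Of all probe sets 44988 have 1 symbol, 1832 several and 2473 none, and 102 are controls. They were fitted with limma 3.58.1 in R 4.3.3, with 1 mean for each of 6 groups (residual degrees of freedom 6, prior 3.92). Tests were two-sided, p-values were Benjamini-Hochberg adjusted over all probe sets, and the threshold was 0.05. A gene was called by its brightest probe set, taken from the mean signal on all 12 arrays. The number of arrays, 2 a group, limits the precision. The model was tested on simulated data, with 50 probe sets changed at each size among 38924. It recovered 38%, 44% and 42% of changes of 0.5 (log2) in H1993, H1693 and H1650, and 0%, 0% and 2% of changes of 0.25. Far fewer probe sets changed there than passed in these data, so recovery here can differ. Small changes that did not pass may have been missed.

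The 10 genes, the pathway and marker lists and the tests were chosen with earlier results of these data known. Named genes were the 10 genes, MARK2, genes among the up to 4 largest changes past the threshold per list and line, and the 2 genes most alike to each of the 10. Same-numbered KD and control arrays deviated from their group means with correlations of 0.30 in H1993, -0.17 in H1693 and -0.12 in H1650, so the numbers were not taken to pair the samples. Alternatives covered the filter, normalization, probe set summary, variance model, replicate block and leaving out each array. Probe set sequences and positions were not used here. Promoter sequences are RefSeq's, build GRCh38.p14.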

Additional observations from a re-analysis of the deposited data

Results flagged for a closer look

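For 8 of the 10 genes the difference between KD and PLKO CONTROL arrays varied between the 3 lines by the limma F test, beside 52.3% of all genes tested. MARK2 itself did not fall past the threshold in H1650 (change -0.29, adjusted p = 0.16), where its control mean was low (5.94). The adjusted p was 0.000156 for TNFRSF1A, with opposite directions in H1693 and H1650, and 0.000412 for FAS, which rose in H1650. For TNFSF10 it was 0.000626 on the brightest probe set, with the smallest change in H1693. The other TNFSF10 probe sets gave 0.619 and 0.0138, and the brightest had H1993 control signals of 4.07 and 4.14, under a log2 of 5. For TNFRSF10B the adjusted p was 0.000809, with the smallest change in H1993. It was 0.00111 for CFLAR and 0.00755 for TNFRSF21, whose brightest probe sets rose in H1650 while other probe sets of the same genes fell there. For TNFRSF10D, which fell in all 3 lines, it was 0.00263, with the largest fall in H1993. For TNFRSF11B it was 1.61e-06, but H1693 and H1650 lie under a log2 signal of 5, where a fall could not be seen. This value is therefore not taken as evidence that the lines differ. The calls for H1650 rest on arrays whose GAPDH 3' minus 5' signal differed between KD and PLKO CONTROL, and the part of this difference was not tested.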

How the results depend on the processing

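Of 2050 gene-level recomputations, 1959 kept the direction and the side of the threshold. In many of them the direction could not change. Leaving out an array of a line outside the comparison, or altering only the filter or the variance model, keeps the estimate as it was. The total is therefore no measure of how firm the directions are. The counts of called genes ranged over single left-out arrays from 3 to 6 in H1993, stayed at 3 in H1693 and 8 in H1650, and were 8 to 9 and 9 for the F tests of the change and of the control levels. Averaging a gene's probe sets gave 5 called genes in H1693 instead of 3 and 4 in H1993 instead of 6, where TNFRSF10B (0.0077, adjusted p = 0.961) and TNFRSF1A (0.12, adjusted p = 0.273) were lost. It gained TNFRSF10C in H1650 (0.23, adjusted p = 0.0342) and lost the TNFRSF10B control step between H1693 and H1650 (0.044, adjusted p = 0.679). It also turned these values: TNFRSF10C to -0.14 in H1993, 0.047 in H1693 and -0.19 for their difference; TNFRSF1A control levels to 1.55 for H1993 minus H1650 and 0.64 for H1693 minus H1650; TNFRSF21 to -0.52 in H1650, with 0.62 and 0.42 for H1993 and H1693 minus H1650 and a control difference of 0.061 for H1693 minus H1650. TNFSF10 moved to -0.063 for H1993 minus H1650. CFLAR moved to 0.36 in H1693, to -0.28, 0.055 and 0.33 for the differences H1993 minus H1693, H1993 minus H1650 and H1693 minus H1650, and to 0.023 for the H1993 minus H1693 control level, while its H1650 change became 0.03. Each average that was lost or turned combines probe sets that differ in direction. Those of TNFRSF10C in H1650 all lay above 0, from 0.08 to 0.42. With quantile normalization the TNFRSF10A change for H1993 minus H1650 was -0.033 and TNFRSF11B in H1693 -0.026, and with equal array medians they were -0.019 and -0.033; none of these passed, and the cause was not tested. Over left-out arrays, values that crossed 0 ranged from -0.044 to 0.25 (TNFRSF10A, H1993 minus H1650), -0.10 to 0.038 (TNFRSF10A, H1693), -0.062 to 0.15 (TNFRSF10C, H1993), -0.14 to 0.043 (TNFRSF10C, H1993 minus H1650 control), -0.076 to 0.089 (TNFRSF11B, H1693) and -0.081 to 0.019 (CFLAR, H1693). With the replicate block 5, 3 and 8 genes were called in H1993, H1693 and H1650 and 8 by the F test of the change; the control levels could not be fitted with the block. With the pairs of H1693 and H1650 crossed, chosen after seeing the data, the counts were 6, 4, 8 and 9. The F tests could not be run on the arrays of 1 line. Signals under a log2 of 5 limit TNFRSF11B in H1693 and H1650 and TNFSF10 in H1993.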
